A study of Mus musculus with 14 samples.

Results

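The Hox genes of dorsal skin epithelium were followed here as one family, all 39 genes of the Hoxa, Hoxb, Hoxc and Hoxd clusters, taken by gene symbol alone from 22033 gene symbols quantified in the same 12 RNA-seq libraries. All libraries came from the dorsal skin of wild-type C57BL/6 mice, with no transgene or other allele named. The 12 libraries formed 6 groups of 2: bulge stem cells of the resting (telogen) hair follicle, interfollicular epidermis of telogen skin, and bulge stem cells of depilated skin, called activated bulge here, each at 2 and at 24 months of age. Cells had been sorted by flow cytometry, and the labels name neither the surface markers of the sort nor the sex of the animals, nor do they say whether the libraries of a group came from separate animals. The p-values below therefore measure the spread between libraries, which may be technical. A further 2 libraries, of wounded epidermis with 1 library per age, entered no comparison.

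Hox genes encode homeodomain transcription factors that give cells their position along the body axis. They lie in 4 clusters, and their order along the chromosome follows the order in which they are used from head to tail, with low paralog numbers at the anterior end. Adult skin keeps part of this positional code, in the dermis as well as in the epithelium, and Hoxc13 has a separate role in the hair follicle, where it controls keratins of the hair shaft. Hox proteins bind DNA together with TALE homeodomain cofactors of the Meis, Pbx and Pknox families, and their silent copies are held by polycomb complexes, which act at CpG-rich DNA.

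Promoter sequence was at hand for 22 of the 39 genes, as 24 windows of 300 bases from RefSeq (build GRCm38.p6, which differs from the mm9 build of the expression data). The stretches upstream of 3 Hoxd genes are shown because, with Hoxd3, these genes had the lowest epidermal levels relative to the telogen bulge. Each runs 5′ to 3′ over the 250 bases before the RefSeq start, on the plus strand of chromosome 2, and capitals mark CG dinucleotides. The offset between this start and the mm9 start of the expression data is the same for Hoxd9 and Hoxd4 but not for Hoxd8. The Hoxd8 stretch therefore does not border the start of the transcript measured. The Hoxd9 stretch lies at chr2:74697513-74697762 and holds 13 CG, the Hoxd8 stretch at chr2:74704365-74704614 holds 6, and the Hoxd4 stretch at chr2:74721728-74721977 holds 3.

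Hoxd9: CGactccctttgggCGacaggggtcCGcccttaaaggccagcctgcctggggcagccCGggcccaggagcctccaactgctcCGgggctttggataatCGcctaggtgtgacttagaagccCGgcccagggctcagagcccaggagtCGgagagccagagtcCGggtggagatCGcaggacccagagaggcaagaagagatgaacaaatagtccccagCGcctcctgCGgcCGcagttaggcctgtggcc

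Hoxd8: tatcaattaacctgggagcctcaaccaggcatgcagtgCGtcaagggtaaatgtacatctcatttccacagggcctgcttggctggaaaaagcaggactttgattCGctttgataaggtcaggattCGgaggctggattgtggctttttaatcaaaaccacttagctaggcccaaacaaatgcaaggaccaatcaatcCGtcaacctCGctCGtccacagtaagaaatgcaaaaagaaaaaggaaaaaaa

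Hoxd4: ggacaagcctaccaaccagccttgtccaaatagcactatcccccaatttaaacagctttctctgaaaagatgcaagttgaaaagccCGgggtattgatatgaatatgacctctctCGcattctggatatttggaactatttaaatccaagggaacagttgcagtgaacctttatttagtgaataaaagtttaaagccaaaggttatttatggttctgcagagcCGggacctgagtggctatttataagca

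The 3 upstream stretches differ in CG content, and a relation of CG content to expression was not tested. Over the full windows, Hox promoters held a median of 14.5 CG (4 to 45), against 7 over all 32851 RefSeq windows. A Pbx-Hox motif, TGATNNAT on either strand, occurred in 4 of the 24 Hox windows (Hoxa2, Hoxb1, Hoxb8 and Hoxd11) and in 8.85% of all windows. The Meis motif TGACAG, also read on both strands, occurred in 2 (Hoxa2 and Hoxa3) and in 19.2% of all windows. Neither string was found in the windows of Hoxd3, Hoxd4, Hoxd8 or Hoxd9, which says only that these letters are not there.

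The Hox clusters also carry microRNAs, small RNAs that silence messages with a matching site. The mature sequences below, from RefSeq, are shown with the seed (bases 2 to 8) in capitals. The miR-196 pair shares one seed and the miR-10 pair another, and the site of miR-196a in Hoxb8 is given beneath them with the bases opposite the seed in capitals.

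miR-196a-5p: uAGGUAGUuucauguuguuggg

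miR-196b-5p: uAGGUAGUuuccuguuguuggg

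miR-10a-5p: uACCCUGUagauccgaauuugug

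miR-10b-5p: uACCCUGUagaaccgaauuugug

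Hoxb8 site: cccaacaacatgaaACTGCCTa

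The Hoxb8 site was the best match of miR-196a in the longest Hoxb8 transcript, with 21 of 22 bases complementary against 14 for the next best stretch, and lies in the 3′ UTR in the last exon (GRCm38, chromosome 11, 96284888 to 96284909, plus strand). The 1 mismatch, a U of the miRNA opposite a G, is at base 5 of the miRNA and so within the seed.

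Expression is given as FPKM (fragments scaled to transcript length and library size, on 1 scale set for these 12 libraries). Rows of 4 values are, in order, 2 months replicate 1, 2 months replicate 2, 24 months replicate 1 and 24 months replicate 2, and mean ± SD is over those 4 libraries (n = 4) unless said otherwise. Depth ranged from 22.6 to 46.0 mega-fragments (M) per library, as estimated. Markers of the bulge were in place: all 8 listed (Cd34, Krt15, Lgr5, Nfatc1, Sox9, Lhx2, Krt24 and Tbx1) were called higher in telogen bulge than in epidermis. In activated bulge 7 of the 8 were still called above epidermis, but against telogen bulge Cd34, Krt24 and Krt15 were called lower, at -3.75, -3.82 and -2.47 on the log2(FPKM + 1) scale, and Sox9 higher, at 0.86. Krt15 was not called between activated bulge and epidermis (-0.73). Markers of epidermis and differentiation did not separate the populations in this way. Of 8 listed, 1 was called higher in telogen bulge than in epidermis (Sbsn, 1.71) and 1 lower (Ly6a, -4.28), where 21.7% and 12.7% of all genes were. Their median difference was 0.67. Krt10 measured 828.8 to 2325 FPKM in telogen bulge, 1391 to 1845 in epidermis and 320 to 4357 in activated bulge. The basal keratins Krt5 and Krt14 checked nothing, since Krt5 was listed at 0 in 7 libraries and Krt14 in 3. Summed markers of dermal fibroblasts and of melanocytes differed between the populations, though not every marker did. The summed level of 10 dermal fibroblast markers was 136.5 to 186.9 FPKM in telogen bulge, 11.1 to 24.3 in epidermis and 60.7 to 560.5 in activated bulge. Most of the telogen sum was Col6a1, at 113.2 to 155.1 FPKM against 4.07 to 20.4 in epidermis. Of the 7 fibroblast markers tested, 3 were called higher in telogen bulge than in epidermis and 0 lower. Besides Col6a1 these were Col1a2, at 11.05 to 13.28 FPKM against 0.0052 to 0.083, and Col1a1, at 2.42 to 4.78 against 0.0164 to 0.126. In telogen bulge, Dcn, Lum and Col3a1 stayed at or below 0.228 FPKM, whereas in activated bulge Dcn reached 112.8 at 2 months and 13.4 at 24 months in the libraries numbered 1. The 6 melanocyte markers summed to 17.7 to 56.4 FPKM in telogen bulge, 2.31 to 4.18 in epidermis and 6.87 to 10.1 in activated bulge. The activated bulge libraries also held Xist at 15.8 to 141 FPKM and Y-linked Eif2s3y at 0.0374 to 0.137, while the other 8 held Xist at or below 0.280 and Eif2s3y at 18.0 to 48.6. Activation and this difference in sex-linked RNA cannot be told apart, and the part of the other cell types in the Hox results was not tested.

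The Hox RNA of this skin came from anterior and middle paralogs, with 1 exception. Of the 27 genes with paralog numbers 1 to 9, 24 reached 1 FPKM in at least 2 libraries and were tested, and Hoxa9, Hoxb1 and Hoxd1 were not. Of the 12 genes numbered 10 to 13, the hair gene Hoxc13 alone was tested. The other 11 stayed at or below 0.171 FPKM in all 12 libraries, among them Hoxa13 and Hoxd13, the digit and genital genes, and Hoxb13, which were listed at 0 throughout. Hoxa9 lay between 0.348 and 1.04 FPKM with overlap of all populations. The 25 tested genes are a choice that favours genes high somewhere. Hoxc9, Hoxd3 and Hoxd9 passed through telogen bulge libraries alone, so they had to be higher there, and their differences from the telogen bulge are given below without p-values. Hoxc13, Hoxd4 and Hoxd8 passed through libraries of both bulge populations and none of epidermis. Their differences from epidermis were thus favoured by the filter and are also given below without p-values.

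**Figure D1:**
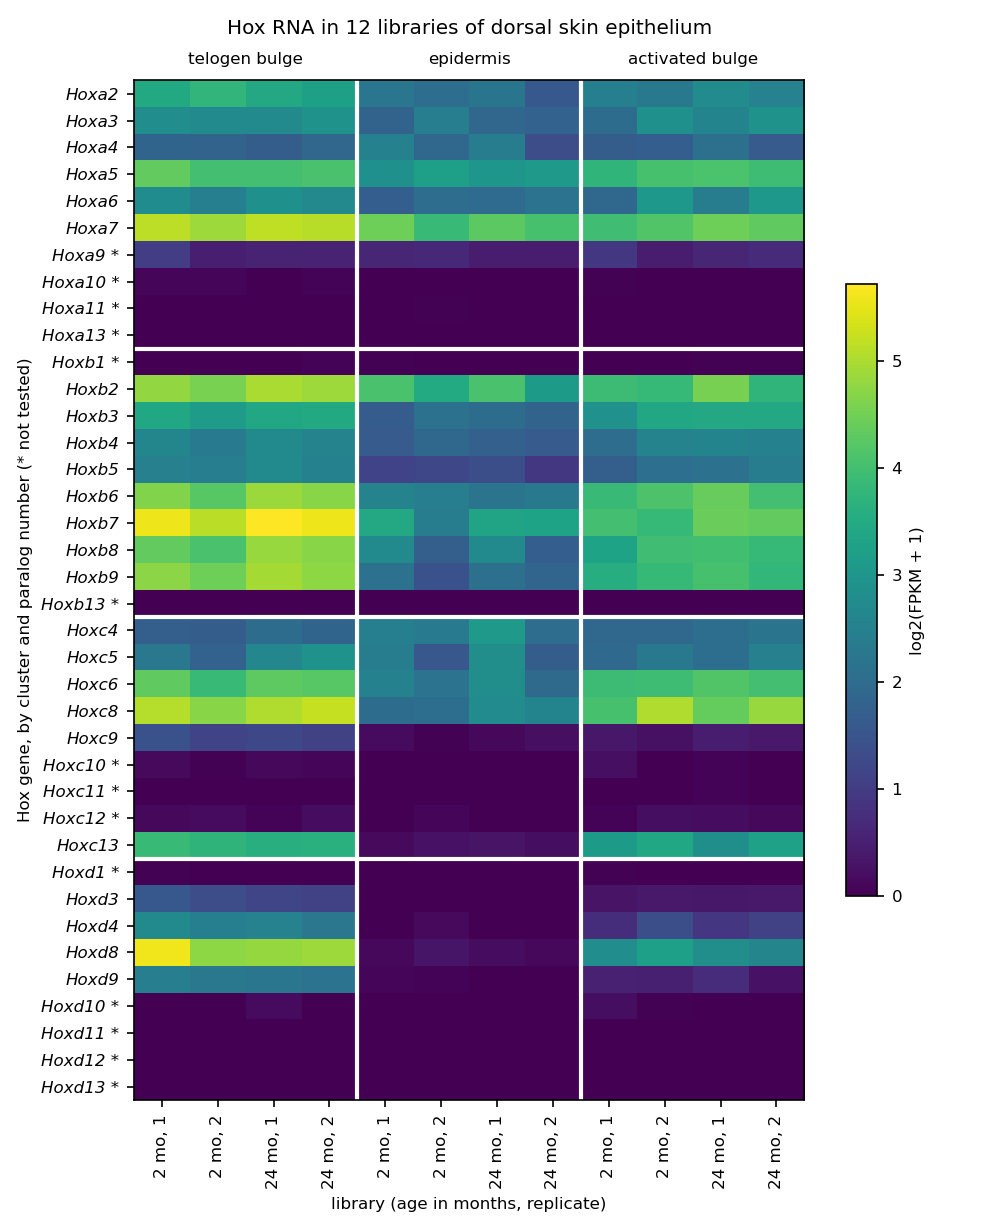
Level of 38 Hox genes (rows, by cluster and paralog number, asterisk for the 14 not tested) in the 12 libraries (columns, by population, age and replicate), as log2(FPKM + 1) on the colour scale. Genes numbered 10 to 13 are dark throughout apart from Hoxc13, and the rows of Hoxc13 and of 4 Hoxd genes are lit in the bulge and dark in the epidermis.

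Hoxb7 had the highest mean in telogen bulge, 44.6 ± 7.57 FPKM, although Hoxd8 was above it in 2-month replicate 1 (46.9 against 46.2). Hoxa7, Hoxd8 and Hoxc8 followed at 32.9 ± 3.01, 32 ± 9.98 and 31.4 ± 4.65 FPKM, and did not differ from each other beyond their spread. In the epidermis the order was another one, with Hoxa7 at 17.1 ± 3.18 FPKM and Hoxb2 at 12.5 ± 4.17, whose values overlapped, ahead of Hoxb7 at 8.06 ± 2.56 and Hoxa5 at 7.32 ± 0.857. In the activated bulge Hoxc8 stood first at 23.6 ± 7.3 FPKM, within the spread of Hoxa7 at 17.9 ± 2.77 and Hoxb7 at 16.9 ± 3.44. FPKM is a level per length, so these levels can be set side by side.

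Summed over a cluster, Hoxb gave the largest part of Hox RNA in telogen and activated bulge. Total Hox RNA was 290.5 to 373.6 FPKM in the 4 telogen bulge libraries, 78.5 to 111.8 in the epidermis and 166.2 to 225.5 in the activated bulge. On this scale the populations did not overlap. The FPKM of all genes together was 675498, 720528, 724043 and 751736 in telogen bulge. In activated bulge it was 642091, 431795, 654034 and 418634. Relative to these totals, telogen and activated bulge overlapped in summed Hox RNA. Telogen 2-month replicate 2 held 290.5 of 720528, a smaller part than the 214.2 of 418634 in activated 24-month replicate 2. The Hoxd cluster (chromosome 2, 74506367 to 74603199, mm9) made up 9.89% to 15.8% of that sum in telogen bulge, 0.121% to 0.508% in epidermis and 3.17% to 4.98% in activated bulge. Hoxa (chromosome 6, 52105366 to 52210874) made up 20.3% to 24.3%, 36.9% to 45.7% and 24.7% to 25.9%, a larger share in epidermis although its summed level was lower there (70.5 to 80.8 FPKM in telogen bulge, 33.8 to 42.8 in epidermis and 41.1 to 56.7 in activated bulge). Hoxb (chromosome 11, 96055675 to 96229567) held 43.0% to 50.6%, 37.8% to 43.2% and 41.1% to 49.3%, and Hoxc (chromosome 15, 102751562 to 102867283) 19.2% to 21.2%, 16.0% to 23.1% and 22.1% to 29.2%. In bulk samples such as these, fewer cells with a transcript and less of it per cell cannot be told apart.

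**Figure D2:**
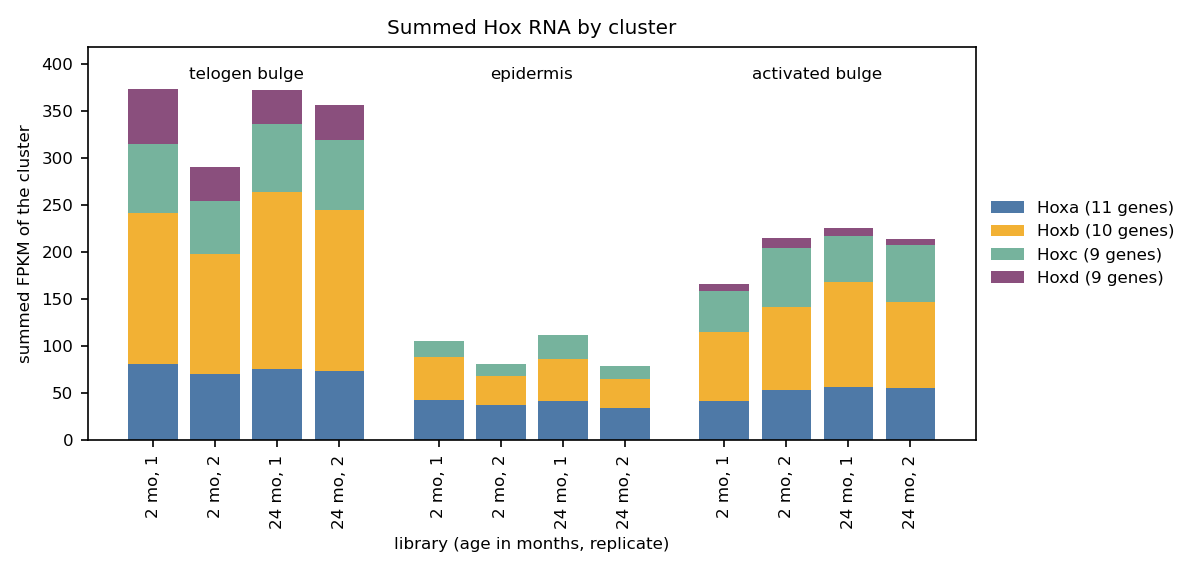
Summed FPKM of the 4 Hox clusters (stacked bars) in each of the 12 libraries, by population, age in months and replicate. The epidermal bars end between 78.5 and 111.8 with no visible Hoxd share, and the telogen bulge bars between 290.5 and 373.6.

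The first comparison asked how the resting follicle differs from the epidermis beside it. Most tested Hox genes were higher in the telogen bulge: 20 of 25 were called higher and 1, Hoxc4, lower. Among all 12468 genes tested, 34.4% were called in this comparison, 21.7% higher and 12.7% lower. The median difference of the 25 Hox genes was 1.37 on the log2(FPKM + 1) scale, against 0.15 over all genes. That scale understates the change of genes with low levels. Among the 19 Hox genes that reached 1 FPKM in at least 1 library of both populations, 14 were called higher and 1 lower, with a median of 1.11, where 18.3% and 12% of all such genes were called. Hoxa4, Hoxa6 and Hoxc5 were among the genes not called. By cluster, the called genes were 4 of 7 for Hoxa, 8 of 8 for Hoxb, 5 of 6 for Hoxc and 4 of 4 for Hoxd. The counts over 25 genes and by cluster include Hoxc9, Hoxd3 and Hoxd9, which passed the filter through telogen bulge alone. They also include Hoxc13, Hoxd4 and Hoxd8, which passed through bulge libraries alone. The count for Hoxd was thus largely set by the filter. The 4 telogen bulge libraries lay above the 4 epidermal ones without overlap for 21 of 25 genes, where 28.5% of all genes did so, and below them for Hoxc4, where 16.1% did.

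The Hoxd genes showed this contrast most plainly. Hoxd8, a middle-paralog trunk gene (chromosome 2, 74543546 to 74545364, plus strand), measured 46.9, 25.9, 26.9 and 28.4 FPKM in the telogen bulge, 0.0841, 0.258, 0.141 and 0.0842 in the epidermis and 5.96, 8.38, 6.12 and 5.08 in the activated bulge. Each telogen bulge value thus stood above every activated value, and each activated value above every epidermal one. The epidermal values rest on 4 to 10 estimated fragments per library, against 1266 to 2388 in telogen bulge. The log2 difference between telogen bulge and epidermis was 4.81 ± 0.20 (SE), with 4.94 ± 0.28 at 2 months and 4.69 ± 0.28 at 24 months. The highest Hoxd8 value, 46.9 in 2-month replicate 1, came from the library with the highest melanocyte sum (56.4 FPKM), while the other 3 telogen libraries lay close together.

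Hoxd4, known in the hindbrain as a retinoic acid responsive gene (chromosome 2, 74560035 to 74567216, plus strand), measured 5.55, 4.56, 4.8 and 3.79 FPKM in telogen bulge, 0, 0.104, 0 and 0.0109 in epidermis and 0.67, 1.57, 0.881 and 1.19 in activated bulge. Hoxd9 (chromosome 2, 74535820 to 74538265, plus strand) measured 4.46, 3.9, 3.73 and 3.52, then 0.0541, 0.0369, 0 and 0, then 0.431, 0.419, 0.659 and 0.217 FPKM in the same order. Hoxd3, whose gene model (chromosome 2, 74550050 to 74586328, plus strand) spans Hoxd4 without sharing an exon with it, measured 1.96, 1.56, 1.3 and 1.16, 0.00475, 0.013, 0 and 0 and 0.227, 0.313, 0.283 and 0.316 FPKM. All 3 repeated the 3 separate steps of Hoxd8 at lower levels, and in the epidermis each was listed at 0 in 2 libraries. Telogen bulge exceeded epidermis by 2.46 ± 0.17 (SE) for Hoxd4, which became 5.27 with 0.1 in place of 1 added to the FPKM. The differences of Hoxd9 and Hoxd3 were 2.26 ± 0.14 (SE) and 1.30 ± 0.13 (SE). The other 5 Hoxd genes, Hoxd1 and Hoxd10 to Hoxd13, did not exceed 0.166 FPKM anywhere.

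Hoxc13, the hair shaft regulator (chromosome 15, 102751562 to 102759245, plus strand), was likewise near 0 in the epidermis. It measured 13.5, 12.1, 10.9 and 11.4 FPKM in telogen bulge, 0.103, 0.204, 0.232 and 0.15 in epidermis and 7.72, 9.82, 6.22 and 8.71 in activated bulge. Its difference between telogen bulge and epidermis was 3.47 ± 0.15 (SE). Neither bulge population overlapped the epidermis. Of 14 hair genes linked to Hoxc13, 12 stayed below the level for testing, and the hair keratins Krt31, Krt35 and Krt85 did not exceed 0.294 FPKM in any library. The tested pair, Foxn1 and Krt32, was not called between telogen bulge and epidermis, at -0.56 and -0.77 with adjusted p = 0.158 and 0.164. In activated bulge against epidermis Krt32 was called lower, at -1.75 (adjusted p = 0.00938), as were 7.22% of all genes. Foxn1 was not called there, at -0.73 (adjusted p = 0.102).

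Other Hoxc genes were present in both compartments. Hoxc8, a thoracic gene (chromosome 15, 102820970 to 102824685, plus strand), measured 32.9, 24.8, 32 and 35.8 FPKM in telogen bulge, 3.04, 3.2, 5.78 and 4.96 in epidermis and 15.7, 31.6, 19.5 and 27.6 in activated bulge. Its neighbour Hoxc6 measured 18.9, 13.6, 18.7 and 17.7, 4.67, 3.53, 6.08 and 2.92 and 14.1, 14.3, 17 and 15.2 FPKM. Epidermal values were the lowest for both, without overlap, and the differences from telogen bulge were 2.65 ± 0.23 (SE), adjusted p = 1.36e-05 for Hoxc8 and 1.81 ± 0.21 (SE), adjusted p = 9.52e-05 for Hoxc6. Hoxc9 was low everywhere, with 1.7, 1.26, 1.37 and 1.2 FPKM in telogen bulge, 0.118, 0.0231, 0.0811 and 0.17 in epidermis and 0.289, 0.197, 0.362 and 0.31 in activated bulge, and differed by 1.11 ± 0.13 (SE) between the first 2.

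Hoxc4 and Hoxc5 at the anterior end of the cluster did not follow. Hoxc4 measured 2.33, 2.21, 3.05 and 2.58 FPKM in telogen bulge, 4.5, 4.03, 7.56 and 3.15 in epidermis and 2.73, 2.76, 3.21 and 3.6 in activated bulge. Its telogen values were all below the epidermal ones, by -0.67 ± 0.21 (SE), adjusted p = 0.0325, a call that was lost in 13 of 25 alternatives (adjusted p up to 0.166) and without any of 4 telogen or of 3 epidermal libraries left out in turn. Hoxc5 measured 3.9, 2.46, 5.3 and 6.6, 4.34, 1.91, 6.09 and 2.21 and 2.88, 3.98, 3.2 and 4.62 FPKM, and the populations overlapped, with a difference of 0.30 ± 0.29 (SE), adjusted p = 0.455.

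All 8 tested Hoxb genes were higher in telogen bulge, and the largest differences lay at the posterior end. Hoxb9 (chromosome 11, 96132644 to 96137907, plus strand) measured 25.5, 21, 29.96 and 25.7 FPKM in telogen bulge, 3.47, 1.71, 3.34 and 2.63 in epidermis and 10.7, 13.2, 15.7 and 12.8 in activated bulge, a difference between the first 2 of 2.82 ± 0.20 (SE), adjusted p = 3.02e-06. For Hoxb8, the gene with the miR-196a site printed above, the values were 19.1, 15.8, 27.6 and 25, 5.67, 2.29, 5.51 and 2.28 and 9.01, 14.7, 14.8 and 13.2 FPKM, and the difference was 2.27 ± 0.28 (SE), adjusted p = 0.00016. Hoxb7 (chromosome 11, 96147960 to 96151477, plus strand) measured 46.2, 33.8, 51.5 and 46.7, 9.92, 4.27, 9.14 and 8.9 and 15, 13.1, 20.4 and 19.3 FPKM, with a difference of 2.37 ± 0.23 (SE), adjusted p = 2.87e-05. In all 3 the populations were separate, telogen bulge highest and epidermis lowest.

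Hoxb6 measured 23.7, 17.7, 28.1 and 25 FPKM in telogen bulge, 4.91, 4.47, 3.56 and 3.95 in epidermis and 13.6, 16.4, 19.9 and 15.1 in activated bulge, and telogen bulge exceeded epidermis by 2.23 ± 0.17 (SE), adjusted p = 5.38e-06. The anterior Hoxb genes differed less. Hoxb5 measured 4.64, 4.48, 5.54 and 4.73, 1.23, 1.36, 1.6 and 0.911 and 2.3, 3.27, 3.35 and 4.39 FPKM (1.37 ± 0.16 (SE), adjusted p = 0.000121). Hoxb4, which expands blood stem cells when overexpressed, measured 5.13, 4.06, 5.62 and 4.87, 2.12, 2.73, 2.38 and 2.11 and 3.13, 4.85, 4.95 and 4.66 FPKM (0.83 ± 0.16 (SE), adjusted p = 0.00284), a call lost with equal library totals (adjusted p = 0.0721) and at 2 months only (0.0554). Neither overlapped between telogen bulge and epidermis. Hoxb3 stood at 9.59, 7.85, 9.65 and 10.03, 2.17, 3.45, 3.05 and 2.54 and 6.4, 9.54, 9.98 and 9.98 FPKM (1.44 ± 0.18 (SE), adjusted p = 0.000137). Hoxb2 stood at 26.6, 22.7, 30.8 and 28.4, 15.9, 10.3, 16 and 7.64 and 14, 13.3, 22.2 and 12.4 FPKM (1.11 ± 0.26 (SE), adjusted p = 0.00814, lost at 2 months only, 0.132), and kept the highest epidermal mean of the cluster.

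The Hoxa genes were the most evenly shared. Hoxa7, the leading epidermal Hox gene (chromosome 6, 52165623 to 52168572, minus strand), measured 34.6, 28.5, 34.9 and 33.5 FPKM in telogen bulge, 20.8, 13.6, 18.4 and 15.5 in epidermis and 14.6, 16.9, 21 and 19 in activated bulge, and telogen bulge exceeded epidermis by 0.92 ± 0.18 (SE), adjusted p = 0.00322. Hoxa5, known for patterning of the neck and lung, measured 19.3, 15, 15.2 and 15.8, 6.36, 8.41, 7.04 and 7.46 and 12.3, 15.6, 16.1 and 14.5 FPKM, a difference of 1.06 ± 0.17 (SE), adjusted p = 0.000707. Telogen bulge and epidermis were separate for both. Hoxa2, a gene of anterior identity in the branchial arches, measured 10.1, 12.6, 9.95 and 8.54, 3.77, 3.17, 3.66 and 2.00 and 4.49, 3.95, 5.8 and 4.82 FPKM, and the difference was 1.46 ± 0.18 (SE), adjusted p = 0.000137. Hoxa3 measured 5.98, 5.67, 5.68 and 6.59, 2.55, 4.43, 2.7 and 2.49 and 3.05, 6.35, 4.93 and 6.62 FPKM, a difference of 0.81 ± 0.22 (SE), adjusted p = 0.0158 that was not called in 5 of 25 alternatives: at 2 months only (0.191), with equal library totals (0.178), with quantile normalization (0.0655) and without telogen 2-month replicate 1 (0.0538) or 24-month replicate 2 (0.0632). Hoxa6 measured 5.87, 4.55, 6.31 and 5.45, 2.28, 3.15, 2.98 and 3.53 and 2.77, 7.27, 4.31 and 7.33 FPKM, and although its telogen and epidermal values did not overlap it missed the threshold at 0.72 ± 0.25 (SE), adjusted p = 0.0521. Hoxa4 (1.53 to 4.74 FPKM over all libraries) overlapped between telogen bulge and epidermis, at -0.24 ± 0.25 (SE), adjusted p = 0.481.

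**Figure D3:**
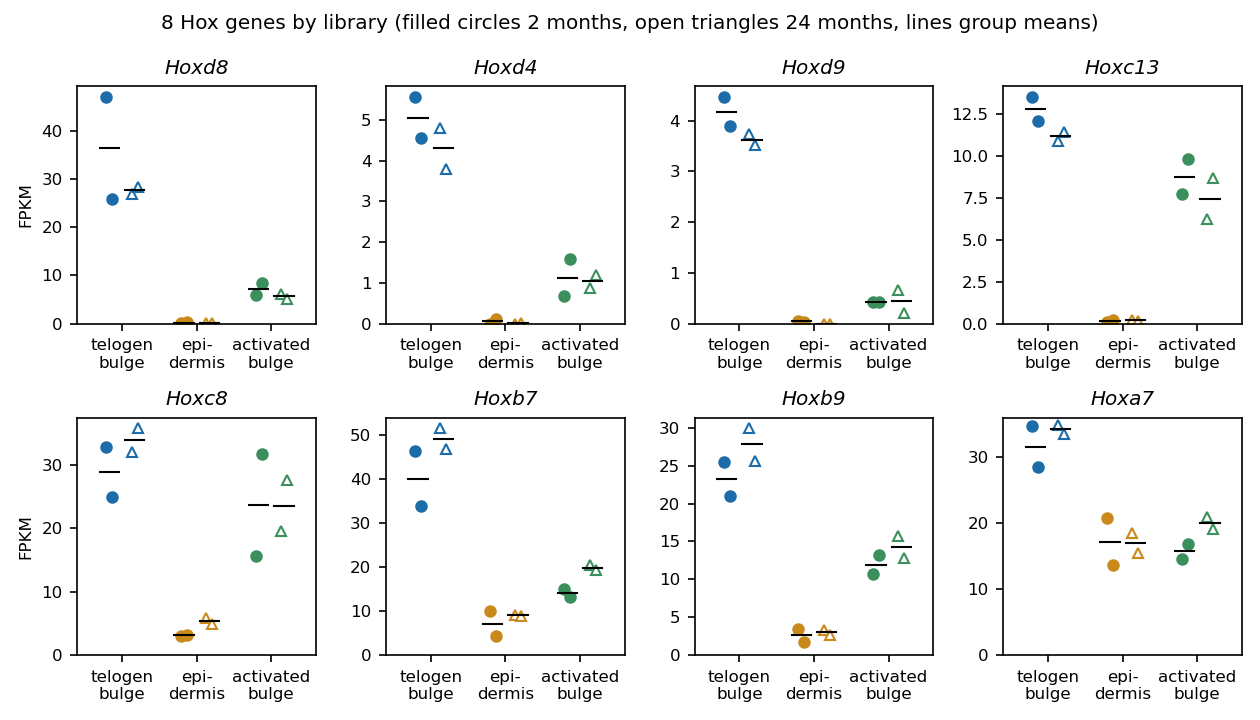
FPKM of 8 Hox genes, chosen after their values were seen, in every library, by population (filled circles 2 months, open triangles 24 months, short lines group means of 2 libraries), each panel on its own linear axis from 0. Hoxd8, Hoxd4 and Hoxd9 are lower in activated than in telogen bulge and near 0 in epidermis, Hoxc13 and Hoxc8 stand at 67.7% and 75.2% of their telogen means, and Hoxa7 overlaps between epidermis and activated bulge.

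The second comparison set bulge cells of depilated skin against resting ones. Of the 25 Hox genes, 12 were called lower in the activated bulge and 0 higher, whereas 31.1% of all genes were called, 17.1% lower and 14% higher. Without overlap, 14 were lower in all 4 activated libraries than in all 4 telogen ones (26.8% of all genes were), and 0 were higher (20.1%). The median difference was -0.51 for the Hox genes and -0.08 for all genes. Among the 21 Hox genes that reached 1 FPKM in at least 1 library of both bulge populations, 9 were called lower and 0 higher, with a median of -0.45, where 17% and 12.7% of all such genes were called. The telogen libraries are those of the first comparison, so the directions in the 2 are not independent. With every library scaled to the same total, the median over all genes moved to 0.30, 7 of the 12 remained called, and 9 of the 13 Hox genes that were not called changed sign. The 7 were Hoxa2, Hoxb7, Hoxc9, Hoxd3, Hoxd4, Hoxd8 and Hoxd9. Of these, Hoxc9, Hoxd3 and Hoxd9 had passed the filter through telogen bulge alone.

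All 4 tested Hoxd genes were lower in the activated bulge. Hoxd8 kept 19.9% of its telogen mean and differed by -2.14 ± 0.20 (SE), adjusted p = 6.61e-05. Hoxd4 kept 23% (-1.46 ± 0.17 (SE), adjusted p = 0.000261). Hoxd9 kept 11.1%, at -1.78 ± 0.14 (SE), and Hoxd3 kept 19%, at -0.95 ± 0.13 (SE). The fall of Hoxd8 and Hoxd4 was called in all 25 alternatives and at each age, with Hoxd8 at -2.15 ± 0.28 at 2 months and -2.12 ± 0.28 at 24 months. Without the activated libraries numbered 1, which held the Dcn values above, Hoxd8 was at -2.08 and Hoxd4 at -1.25. Without those numbered 2 they were at -2.19 and -1.67.

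Hoxc9 stood at 20.9% of its telogen mean (-0.88 ± 0.13 (SE)). Hoxb7 fell to 38% (-1.35 ± 0.23 (SE), adjusted p = 0.0026), in all 25 alternatives. Hoxa2 fell to 46.3% (-0.97 ± 0.18 (SE), adjusted p = 0.0036), Hoxa7 to 54.3% (-0.85 ± 0.18 (SE), adjusted p = 0.00787) and Hoxb9 to 51.2% (-0.91 ± 0.20 (SE), adjusted p = 0.0077). The calls of these 3 were lost with the 24-month groups alone (adjusted p = 0.116, 0.107 and 0.0732), those of Hoxa7 and Hoxb9 also with equal library totals (0.112 and 0.1), and that of Hoxb9 at 2 months only (0.0601). The activated values of Hoxa7 overlapped its epidermal ones. Calls on 3 further genes were less secure: Hoxb2 at -0.80 ± 0.26 (SE), adjusted p = 0.0423, Hoxb6 at -0.51 ± 0.17 (SE), adjusted p = 0.0439 and Hoxc13 at -0.52 ± 0.15 (SE), adjusted p = 0.0283 were called in 13, 11 and 14 of 25 alternatives. For each of them the call was lost without any 1 of the 4 telogen libraries (adjusted p = 0.0663 to 0.164). It was also lost without activated replicate 1 of either age for Hoxc13 (0.0661 and 0.0856), and without 2-month replicate 1, 2-month replicate 2 or 24-month replicate 2 of the activated bulge for Hoxb2 (0.0642, 0.0949 and 0.144) and Hoxb6 (0.0987, 0.0615 and 0.142).

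Other Hox genes were not called on activation. Hoxb3 stood at 96.7% of its telogen mean (-0.06 ± 0.18 (SE), adjusted p = 0.823), Hoxa5 at 89.6% (-0.15 ± 0.17 (SE), adjusted p = 0.507) and Hoxc6 at 88% (-0.17 ± 0.21 (SE), adjusted p = 0.556). Hoxc8 stood at 75.2%, at -0.43 ± 0.23 (SE), adjusted p = 0.17, with its activated replicates 1 (15.7 and 19.5 FPKM) below its replicates 2 (31.6 and 27.6). Hoxa3, Hoxa4, Hoxa6, Hoxb4 and Hoxc5 kept 80.4% to 98.7% of their telogen means, and Hoxc4 stood at 121%. A difference that missed the threshold is not shown to be absent. Hoxb5 missed it at -0.45 ± 0.16 (SE), adjusted p = 0.0597 and Hoxb8 at -0.71 ± 0.28 (SE), adjusted p = 0.081, both with activated values below every telogen value.

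**Figure D4:**
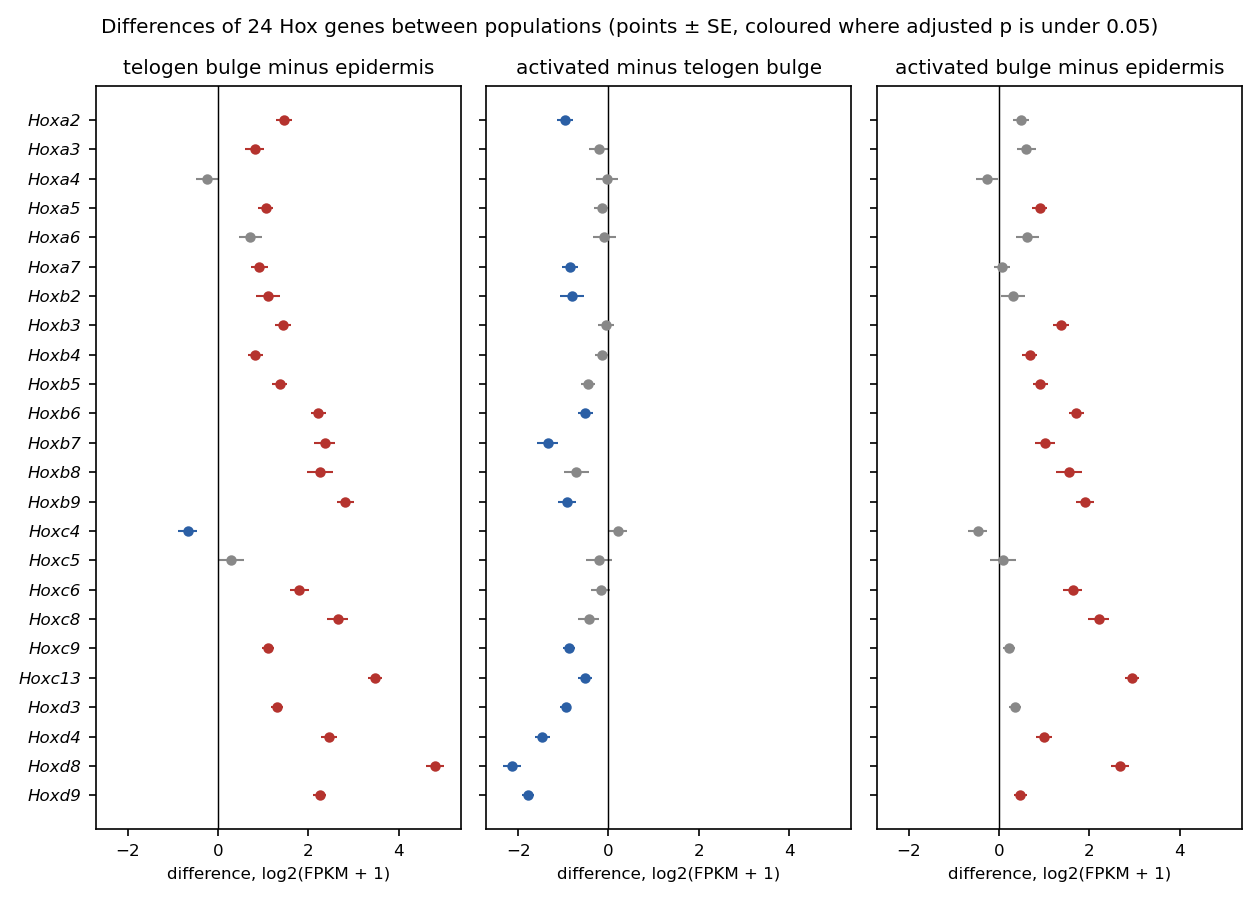
Difference in log2(FPKM + 1) for 24 tested Hox genes in the 3 comparisons of populations (points, bars ± SE; red called higher, blue called lower, grey not called). Telogen bulge is called higher than epidermis in 20 genes, with Hoxd8 farthest at 4.81. The activated bulge is called lower than the telogen bulge in 12, with Hoxd8 farthest at -2.14.

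The third comparison asked what of the follicle pattern was left after depilation. The activated bulge was higher than the epidermis in 14 of 25 Hox genes and lower in 0, while 22.6% of all genes were called, 15.3% higher and 7.22% lower. Without overlap, 17 were higher (17.6% of all genes) and 1 was lower (7.86%). The median difference was 0.68 against 0.08 over all genes. Among the 18 Hox genes that reached 1 FPKM in at least 1 library of both populations, 10 were called higher and 0 lower, with a median of 0.8, where 11.1% and 7.14% of all such genes were called. The 14 include Hoxc13, Hoxd4 and Hoxd8, which passed the filter through bulge libraries and none of epidermis. This comparison shares its libraries with the other 2 and is no separate evidence for them.

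Hoxc13 remained the largest, at 2.95 ± 0.15 (SE), then Hoxd8 at 2.68 ± 0.20 (SE) and Hoxc8 at 2.21 ± 0.23 (SE), adjusted p = 7.08e-05. Of the Hoxb genes, 7 of 8 were called, from 0.68 ± 0.16 for Hoxb4 to 1.91 ± 0.20 for Hoxb9, and Hoxb2 was not (0.31 ± 0.26 (SE), adjusted p = 0.446). The Hoxb4 call was lost in 5 of 25 alternatives (adjusted p up to 0.197), with a difference of 0.36 under quantile normalization. Hoxb5 lost its call in 2, with 0.52 under quantile normalization (adjusted p = 0.0656), and Hoxb7 lost its call at either age alone (0.085 and 0.0666). Hoxa5 was the called Hoxa gene (0.91 ± 0.17 (SE), adjusted p = 0.00274). Hoxc6 was at 1.64 ± 0.21 (SE), adjusted p = 0.000275 and Hoxd4 at 1.0 ± 0.17 (SE). Genes that were not called included Hoxa2 (0.49 ± 0.18 (SE), adjusted p = 0.0801), Hoxa7 (0.07 ± 0.18 (SE), adjusted p = 0.842), Hoxc9 (0.23 ± 0.13 (SE), adjusted p = 0.26) and Hoxd3 (0.35 ± 0.13 (SE), adjusted p = 0.0774). Hoxd9, at 0.48 ± 0.14 (SE), adjusted p = 0.037, was called in 7 of 25 alternatives, and its call was lost without any 1 library other than activated 24-month replicate 2 (adjusted p = 0.0583 to 0.119). Leaving out both activated libraries that held fibroblast RNA left 1 activated library per age. The differences were then 0.96 for Hoxb7 and 0.36 for Hoxd9, against 1.02 and 0.48 with all libraries.

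Age was compared within each population, 2 libraries against 2, over the span from 2 to 24 months. With limma, 0 of 25 Hox genes and 0% of all genes passed in telogen bulge, in epidermis, in activated bulge and in the mean over the 3, and 0 Hox genes had an unadjusted p under 0.05, where 0.826% to 2.25% of all genes did. In the mean over populations the Hox differences ran from -0.23 to 0.39. The 3 tests of whether the age difference itself varied between populations also gave 0 calls, with 0 Hox genes and 0.674% to 1.25% of all genes at an unadjusted p under 0.05. On simulated data of this layout, the age comparison in telogen bulge recovered 0% of log2 changes of 1 and 63.5% of changes of 2. The simulation drew 1 spread per gene for all groups and changed only genes above a set mean level. Telogen replicates correlated at 0.984 and 0.997, and the other replicate pairs at 0.919 to 0.959. Recovery may thus differ in telogen bulge itself and for low Hox genes. Changes of the size seen here may have been missed.

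The values at both ages are therefore given as a description. In telogen bulge the Hox differences lay between -0.33 and 0.75, with SE of 0.18 to 0.41. All 8 tested Hoxb genes were higher at 24 months there, by 0.14 to 0.57, and all 4 tested Hoxd genes lower, by -0.33 to -0.16. Replicates did not overlap in 9 genes that were higher at 24 months, where 26.8% of all genes did so, and in 5 that were lower, where 27.3% did. Hoxb8 was at 0.57 ± 0.40, with 19.1 and 15.8 FPKM at 2 months against 27.6 and 25 at 24 months. Hoxc5 had the largest difference, 0.75 ± 0.41, from 3.90 and 2.46 FPKM to 5.3 and 6.6. Hoxd8 was at -0.33 ± 0.28, but its 24-month values lay between its 2-month values.

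In epidermis the differences ran from -0.33 to 0.63. Hoxc8 was the gene higher at 24 months without overlap (5.26% of all genes were), at 0.63 ± 0.33, from 3.04 and 3.20 FPKM to 5.78 and 4.96. Hoxb6, Hoxd3 and Hoxd9 were lower without overlap (3.96% of all genes were), the Hoxd genes at levels of 0 to 0.0541 FPKM. In activated bulge 8 genes were higher at 24 months without overlap (7.32% of all genes) and 0 lower (9.66%), and the differences ran from -0.30 to 0.47. Those 8 were Hoxa2, Hoxa7, Hoxb3, Hoxb5, Hoxb7, Hoxc4, Hoxc6 and Hoxc9. Hoxb7 was at 0.47 ± 0.33, from 15.0 and 13.1 FPKM to 20.4 and 19.3. None of these differences passed the test, and 2-month activated replicate 1 was the library with the most fibroblast RNA. Without that library, 10 of the 25 age differences in activated bulge changed sign.

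**Figure D5:**
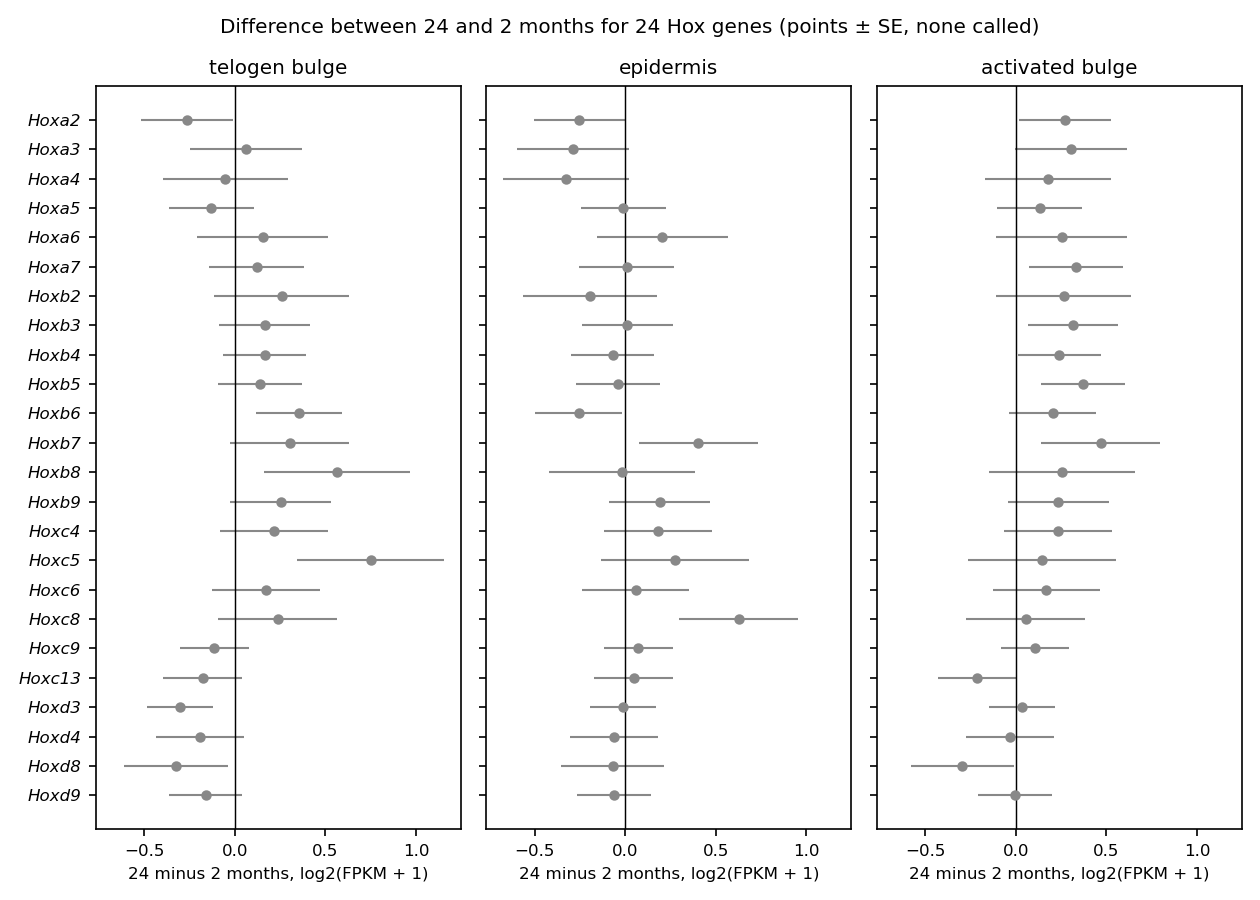
Difference between 24 and 2 months in log2(FPKM + 1) for 24 tested Hox genes in each population (points, bars ± SE, 2 libraries against 2, none called). Differences lie between -0.33 and 0.75.

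The partners of Hox proteins were divided between the populations. All 9 TALE cofactors were tested, and 3 were called higher and 3 lower in telogen bulge than in epidermis, where 21.7% and 12.7% of all genes were. Pbx3 measured 10.7 to 17.4 FPKM in telogen bulge and 2.26 to 2.75 in epidermis, at 2.19, and Pknox2 measured 5.41 to 8.08 and 0.227 to 0.548, at 2.47. The third higher gene was Meis1, at 0.54 (adjusted p = 0.0440). Meis2, Meis3 and Pbx4 were lower in telogen bulge, at -1.11, -0.91 and -0.78. On activation 0 of 9 were called higher and 1 lower (14% and 17.1% of all genes): Pknox2 fell by 1.33 on the log2 scale to 1.09 to 2.76 FPKM, while Pbx3 stood at 15.6 to 21.8 FPKM. Against epidermis the activated bulge again had 3 higher and 3 lower (15.3% and 7.22% of all genes).

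Of 26 polycomb and trithorax genes, which keep Hox genes silent or active, all were tested. In telogen bulge 8 were called higher and 3 lower than in epidermis, beside 21.7% and 12.7% of all genes, with a median of 0.17 against 0.15 over all genes. Cbx6, Cbx7 and Cbx8, readers of the polycomb mark, were higher, at 2.83, 1.91 and 1.66. Ezh2, the enzyme that writes the mark, was lower, at -1.47, with 5.31 to 7.67 FPKM in telogen bulge and 14.1 to 24.7 in epidermis. On activation 8 rose and 3 fell, where 14% of all genes rose and 17.1% fell. Ezh2 rose by 1.88, reaching 20.9 to 33.1 FPKM, and Kdm6b, a demethylase that removes the mark, rose by 1.66. Psip1, a chromatin reader, rose by 1.25. The 3 that fell, named here after their values were seen, were Cbx7 at -1.33, Cbx8 at -1.0 and Ezh1 at -0.73. Against epidermis the activated bulge had 7 higher and 0 lower (15.3% and 7.22% of all genes).

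Of 11 genes listed at the flanks of the clusters, 10 were in the files and 6 were tested. Calcoco1, beside Hoxc, was the 1 gene called higher in telogen bulge than in epidermis, at 1.13, and it was lower again on activation, at -0.83. Cbx5, likewise beside Hoxc, was called higher on activation, at 0.95 (adjusted p = 0.0201). Mtx2 and Lnp beside Hoxd were not called (0.28 and -0.41), nor was Skap2 beside Hoxa (0.09). Evx1 and Evx2, the homeobox genes at the posterior ends of Hoxa and Hoxd, did not exceed 0.0110 FPKM.

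Among noncoding genes of the clusters, 7 of 13 listed were in the files and 0 were tested, being too short or too low. The precursor of miR-196a-1 (mm9, chromosome 11, 96126478 to 96126579, plus strand, 102 nt), 6065 bases before Hoxb9, was the only one covered in every library. Its FPKM cannot be used at that length. By fragments, estimated from the deposited confidence bounds, it held 57 to 69 per library in telogen bulge, 8 to 16 in epidermis and 13 to 33 in activated bulge. Per mega-fragment of depth these were 1.24 to 1.81, 0.191 to 0.619 and 0.375 to 1.39, so telogen bulge and epidermis did not overlap, as in Hoxb9 next to it. Such fragments come from a polyadenylated precursor or from a longer transcript over the site and do not measure the mature miR-196a whose sequence is printed above.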

How the data were processed

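RNA of sorted cells was collected in Trizol LS and made into libraries with a TruSeq mRNA kit, per the labels' protocols. The submitters' processing notes name TopHat, Cufflinks and the mouse genome mm9, with roles and versions not given in the sources used here. For the 12 libraries the authors deposited FPKM for the same 28018 transcripts. They exceed a usual FPKM by a factor of 12533 to 18522, as inferred from the values, and were all divided by 1 constant, 16679.9, which changes no ratio. FPKM were summed per gene symbol. Genes with at least 1 FPKM in at least 2 libraries and a transcript of 300 nt or more were tested, 12468 in all, without Krt5 and Krt14. From the deposited FPKM, log2(FPKM + 1) was modelled by limma (3.58.1, in R 4.3.3) on 6 group means, using all 12 libraries and eBayes (trend on). Contrasts were two-sided, p-values were adjusted by Benjamini-Hochberg over all genes tested, and a gene was called at an adjusted p under 0.05. The 6 groups thus share 1 spread per gene.

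Estimates of depth come from the FPKM, the upper confidence bounds and the transcript lengths of the deposited data, and depth limits the genes near 0. Only Hoxa3 and Hoxa11 share exon bases with another gene, on the opposite strand (28 and 525 nt), and the kit is not stated to keep strand. On simulated data of the same layout, 30.5% of log2 changes of 1 and 91.5% of changes of 2 were recovered between telogen bulge and epidermis, among 12468 genes. The limits given for the simulated age comparison hold here too.

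All 39 Hox genes enter the counts, and 1 of them is not reported here on its own. Values in every library are given for those called in any comparison or with a group mean of at least 5 FPKM. From the other lists up to 4 genes with the smallest p in a comparison and the defining cell type markers are named, and any others were chosen after their values were seen. The members and lists were chosen with earlier results of these data known. Alternatives covered normalization, filter, pseudocount, main transcript, trend, library weights, the libraries fitted, single ages, blocking on the replicate number, and leaving out single libraries. Leaving out both activated libraries of one replicate number and counting genes that reach 1 FPKM in both populations were added after seeing the data.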

Additional observations from a re-analysis of the deposited data

Results flagged for a closer look

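Wounded epidermis, which entered no comparison, held 6 of 39 Hox genes at 1 FPKM or more in both of its libraries. These libraries have 1 replicate per age, another transcript annotation and another FPKM scale, so the values stand alone. Hoxa7 was listed at 54.4 FPKM at 2 months and 53.8 at 24 months. Hoxa5 was listed at 6.73 and 24.8, and Hoxc8 at 4.16 and 5.85. Hoxb7 stood at 3.61 and 4.33, Hoxb9 at 1.48 and 2.74 and Hoxc5 at 1.81 and 2.04. In the same libraries Hoxc13 was listed at 0.112 and 0.134, none of the 9 Hoxd genes exceeded 0.276, and 18 Hox genes were listed at 0 in both. No test can be made of any difference between these 2 libraries.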

How the results depend on the processing

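The count of Hox genes called between telogen bulge and epidermis (21) ran from 17 to 22 over the 25 alternatives, and from 19 to 22 with each library left out in turn. The count between activated and telogen bulge (12) fell to 7 with equal library totals and to 6 at 24 months only, where fewer libraries are compared, and ran from 9 to 13 with each library left out. The count between activated bulge and epidermis (14) ran from 10 to 16, and from 13 to 15 with each library left out. Every age comparison gave 0 Hox genes under every alternative, in designs that may miss changes of this size. No called difference turned its sign. With a replicate block the counts were 22, 12 and 16, and 0 for age. Of 15 correlations between same-numbered libraries, 7 were above 0.1, in a range of -0.584 to 0.787. The difference between replicates correlated with length (Spearman) at 0.526 and 0.226 in epidermis at 2 and 24 months. In activated bulge this was 0.544 and 0.469, and in telogen bulge -0.3 and 0.101. Such values cannot decide whether the replicate numbers pair the libraries. Genes under about 1 FPKM rest on few fragments, so the epidermal levels of the Hoxd genes are near the limit of detection.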
